A study of Mus musculus with 2 samples.

Results

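Cxcl9-high macrophages without Nos2 were 583 of the 7005 cell barcodes of 2 single-cell RNA libraries, 554 in the responder library and 29 in the non-responder library. They were chosen by counts of unique molecular identifiers (UMIs), each of which stands for 1 captured RNA molecule. A barcode was a macrophage of the gate if it had at least 500 detected genes, at most 10% of its UMIs on mitochondrial genes and at least 1% of its UMIs on the complement genes C1qa, C1qb and C1qc. It also had no UMI of the T cell receptor genes Cd3d, Cd3e and Cd3g, of the proliferation genes Mki67 and Top2a or of Nos2, the inducible nitric oxide synthase, and under 20 UMIs in all of the type I interferon genes Ifit1, Ifit2, Ifit3, Cmpk2, Rsad2 and Oasl1. This gate held 3691 cells, and those with at least 10 Cxcl9 UMIs are the Cxcl9-high macrophages. They were set, within each library, against the 1770 Cxcl9-zero macrophages, which passed the same gate with no Cxcl9 UMI (660 in the responder library and 1110 in the non-responder one). The other 1338 cells of the gate had 1 to 9 Cxcl9 UMIs.

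Both libraries held CD45+ leukocytes sorted from subcutaneous tumours that C57BL/6 mice carried after injection of 50000 MC38-GFP+ cells, which come from an adenocarcinoma of the mouse colon and carry green fluorescent protein. All mice had received 100 ug of antibody against PD-1, an inhibitory receptor of T cells, on days 12, 15, 18 and 22, so there was no untreated group. The labels divide the tumours into responder and non-responder, with 1 library each, and give neither the age and sex of the mice nor how many contributed to a library. Response, animal, tumour and library preparation therefore cannot be told apart, no test between the libraries was possible, and every interval below covers counting error only. The libraries shared 14 cell barcodes, of which 2 were responder members and 0 were non-responder members.

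Cxcl9 is a chemokine that binds CXCR3, a receptor of activated T cells and natural killer cells. Macrophages and dendritic cells make it chiefly in response to interferon-gamma, which acts on genes through short palindromes called gamma-activated sites (GAS). Interferon-gamma also raises the guanylate-binding proteins, the immunity-related GTPases and the machinery of antigen presentation, and, with microbial signals, Nos2. Type I interferons act mainly through a related element, the interferon-stimulated response element (ISRE), which IRF1 can also bind.

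The promoters of Cxcl9, its neighbour and fellow CXCR3 ligand Cxcl10, and 4 genes that accompanied Cxcl9 in these cells are shown because they are the sequences in which such elements were searched. They run from 250 bases before to 50 bases after the RefSeq start on GRCm38.p6, 5′ to 3′ along the gene's strand, and capitals mark a motif.
Cxcl9, chr5:92328030-92328329, minus strand: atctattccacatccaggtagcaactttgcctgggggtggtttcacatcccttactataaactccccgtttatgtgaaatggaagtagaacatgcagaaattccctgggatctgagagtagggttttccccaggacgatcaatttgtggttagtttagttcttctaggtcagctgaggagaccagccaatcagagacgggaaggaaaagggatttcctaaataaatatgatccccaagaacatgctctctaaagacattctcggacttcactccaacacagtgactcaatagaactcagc
Cxcl10, chr5:92348840-92349139, minus strand: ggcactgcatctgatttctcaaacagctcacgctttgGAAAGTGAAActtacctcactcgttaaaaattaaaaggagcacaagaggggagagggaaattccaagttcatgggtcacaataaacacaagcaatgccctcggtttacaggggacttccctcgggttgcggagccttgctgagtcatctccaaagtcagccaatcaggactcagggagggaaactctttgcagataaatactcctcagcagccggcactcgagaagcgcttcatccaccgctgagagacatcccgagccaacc
Gbp2, chr3:142620413-142620712, plus strand: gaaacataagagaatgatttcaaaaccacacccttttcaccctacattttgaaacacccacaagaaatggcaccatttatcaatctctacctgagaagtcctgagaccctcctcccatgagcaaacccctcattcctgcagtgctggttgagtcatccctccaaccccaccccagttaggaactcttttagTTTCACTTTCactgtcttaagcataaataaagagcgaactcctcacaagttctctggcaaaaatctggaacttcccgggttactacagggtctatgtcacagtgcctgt
Gbp2b, chr3:142594597-142594896, plus strand: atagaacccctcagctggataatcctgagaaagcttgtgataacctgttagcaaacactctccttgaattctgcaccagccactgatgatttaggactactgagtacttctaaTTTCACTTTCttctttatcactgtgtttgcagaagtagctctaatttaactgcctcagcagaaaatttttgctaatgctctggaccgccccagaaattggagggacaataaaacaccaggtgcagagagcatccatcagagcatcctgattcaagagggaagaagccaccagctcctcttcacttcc
Slamf8, chr1:172590519-172590818, minus strand: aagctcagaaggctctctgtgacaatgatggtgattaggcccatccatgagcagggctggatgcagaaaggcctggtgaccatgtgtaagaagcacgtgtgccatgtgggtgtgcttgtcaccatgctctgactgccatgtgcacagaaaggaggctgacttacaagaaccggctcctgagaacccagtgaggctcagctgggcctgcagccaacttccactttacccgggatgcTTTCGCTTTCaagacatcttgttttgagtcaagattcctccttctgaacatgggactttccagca
Serpina3g, chr12:104235897-104236196, plus strand: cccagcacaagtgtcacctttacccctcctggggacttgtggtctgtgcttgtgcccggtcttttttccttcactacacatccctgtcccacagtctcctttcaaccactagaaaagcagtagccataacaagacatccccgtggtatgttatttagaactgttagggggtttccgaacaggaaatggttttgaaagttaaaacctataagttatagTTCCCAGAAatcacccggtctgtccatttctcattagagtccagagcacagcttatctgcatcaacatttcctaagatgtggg
The letters searched on both strands were TTCNNNGAA for GAS and, for the core of ISRE, GAAA followed by 2 bases of any kind and GAAA, and the 2 may overlap. Of the 32851 RefSeq mouse promoters of this length, 8.30% held the GAS letters, 3.44% the ISRE letters and 11.3% either. Cxcl9 held neither in this window. This says nothing about sites elsewhere, or about elements inside the window whose letters differ from these 2 patterns. The ISRE letters stood 213 to 204 bases before the start of Cxcl10, 59 to 50 before Gbp2, 137 to 128 before Gbp2b and 15 to 6 before Slamf8, and the GAS letters 33 to 25 bases before Serpina3g. Among the 20 genes ranked highest in Cxcl9-high over Cxcl9-zero macrophages, described below, 13 had a RefSeq promoter and 6 of these held one of the motifs, and among the 12 ranked lowest 9 had a promoter and 1, Spp1, held one. A match is a description of letters and not of a bound site.

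In the responder library 22.98% of the gated macrophages were Cxcl9-high (554 of 2411, Clopper-Pearson 95% interval 21.3 to 24.7%), and in the non-responder library 2.27% (29 of 1280, 1.52 to 3.24%). The Cxcl9-zero class was the smaller share in the responder library, 27.4%, and the larger in the non-responder library, 86.7%. Gated cells had a median of 9615 UMIs in the responder library and 11414.5 in the non-responder one. When each cell was thinned to 5000 UMIs and the limit was set at 5 Cxcl9 UMIs, the shares were 25.2% (553 of 2194) in the responder and 2.31% (28 of 1210) in the non-responder library, with 217 and 70 shallower cells left out. These shares describe the rule, since Cxcl9 chose the cells.

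**Figure D1:**
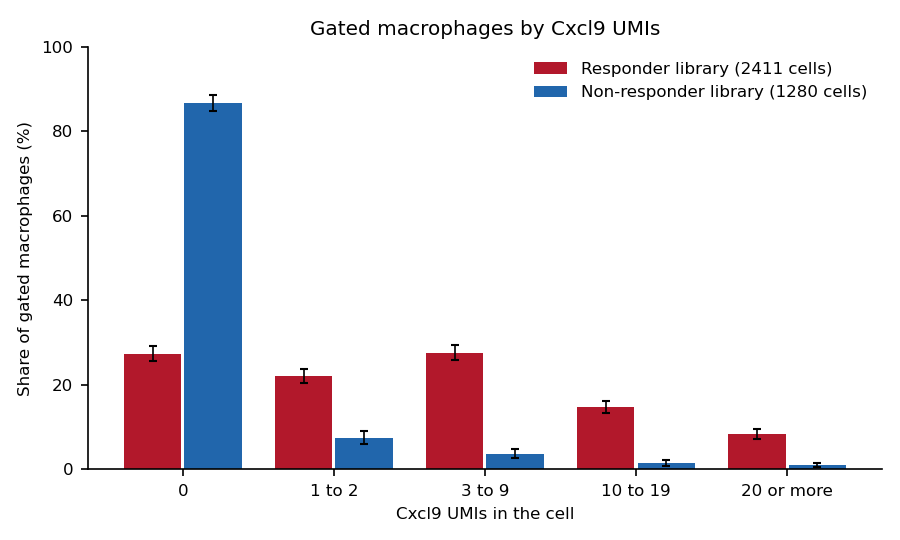
Share of gated macrophages (vertical axis, percent, from 0) by Cxcl9 UMIs of the cell (horizontal axis) in the responder (red, 2411 cells) and non-responder (blue, 1280 cells) libraries; bars are shares and whiskers exact 95% intervals of counting error. At 0 UMIs stood 27.4% of responder and 86.7% of non-responder cells.

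Within the members, Cxcl9 itself was alike in the libraries. A responder cell had 10 Cxcl9 UMIs at the lowest, 16 at the median and 72 at the highest, and a non-responder cell 10, 18 and 72. Summed over cells and divided by the total of the same cells to give counts per 1000000 UMIs (CPM), Cxcl9 (chr5:92321347-92328079 on GRCm38, minus strand) was at 1794 CPM in responder and 1740.5 CPM in non-responder members. The interval of the ratio between the libraries, -0.07 to 0.16 on the log2 scale, included 0, on a level that the limit partly fixes. At the limit itself, 39 responder and 2 non-responder cells had 10 UMIs and lay just inside, and 45 and 4 cells had 9 and lay just outside. Gbp2, for example, was at 598 CPM in responder cells with 10 to 12 Cxcl9 UMIs and 569 CPM in those with 7 to 9.

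T cells, which should lack Cxcl9, were used to look at background from free RNA. Choosing them for little C1q RNA leaves out barcodes with more free macrophage RNA, so their shares can understate that background. Among T cell barcodes with little C1q RNA, 5 of 48 in the responder library (10.4%) and 1 of 59 in the non-responder library (1.69%) had a Cxcl9 UMI, at median depths of 3922 and 5088 UMIs, and 0 had 10 or more, which allows up to 6.25% and 5.08% at 3 counts, or 7.40% and 6.06% as exact upper limits. The members had medians of 10759 UMIs in the responder library and 12656 in the non-responder one, against 8781 and 11328.5 in the Cxcl9-zero cells. Doublets were not removed, and leaving out the 5% of gated cells with the most UMIs gave shares of 22.0% in the responder library and 2.30% in the non-responder one, and leaving out the shared barcodes gave 22.97% and 2.28%.

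The cells carried the RNA of macrophages. Of 14 macrophage or monocyte markers, 13 had counts in the members of each library and Cd163 had none, and their sum was 26213 CPM in responder members and 27800 CPM in non-responder members, against 27504 and 29678 CPM in Cxcl9-zero cells. T cell markers summed to 7.93 CPM in responder and 10.8 CPM in non-responder members, against 8.21 and 4.91 CPM in Cxcl9-zero cells, with Cd3 at 0 by the rule. Natural killer cell markers summed to 14.6 and 2.71 CPM in the members, against 14.5 and 3.20 CPM in Cxcl9-zero cells. The sums for B cells, plasmacytoid dendritic cells, neutrophils and endothelium rested mainly on Cd79b, Bst2, Csf3r or S100a8, and Pecam1, while Cd79a, Ccr9 and Cldn5 had no count in members.

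The summed level of 12 dendritic cell markers was higher in members than in Cxcl9-zero cells, on few counts in the non-responder library. Their sum was 72.8 CPM in responder members, against 35.8 CPM in responder Cxcl9-zero cells, and 48.8 CPM in non-responder members, against 24.4 CPM in non-responder Cxcl9-zero cells. Batf3, a transcription factor of cross-presenting dendritic cells, led with 45.8 CPM in responder members (28.8 CPM in Cxcl9-zero cells) and 35.2 CPM, or 13 counts, in non-responder members (21.3 CPM in Cxcl9-zero cells), where the interval of the log2 ratio, -0.20 to 1.53, included 0. Xcr1, the chemokine receptor that marks those cells, had a UMI in 11.9% of responder members, against 3.33% of responder Cxcl9-zero cells, and in 0 of the 29 non-responder members, which allows a share of up to 10.3% at 3 counts and 11.9% as the exact upper limit. Clec9a, also on the list, had a UMI in 5.05% of responder members, against 1.21% of responder Cxcl9-zero cells. In the non-responder library Clec9a had 3 counts in 10.3% of members, against 0.09% of Cxcl9-zero cells. The intervals of its log2 ratios, 0.46 to 2.84 in the responder and 3.07 to 12.4 in the non-responder library, excluded 0. The defining gene Flt3 had no count in responder members and 1 count in non-responder members, and Cd209a had none in either. The part of dendritic cells in the results was not tested.

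The 4 markers other than Cxcl9 that name the class differed in how far they went with it. Slamf8 (chr1:172581758-172590568), a receptor of the SLAM family, was at 245 CPM in responder members and 113 CPM in responder Cxcl9-zero cells, and at 108 CPM in non-responder members and 28.7 CPM in non-responder Cxcl9-zero cells. Gbp2b, a guanylate-binding protein, was at 136 CPM in responder members and 47.8 CPM in responder Cxcl9-zero cells, and had 8 counts in 10.3% of the 29 non-responder members against 4 counts in 1110 Cxcl9-zero cells. Cd300e, an activating receptor of monocytes, was at 79.8 CPM in responder members and 42.4 CPM in responder Cxcl9-zero cells, but had 1 count in the 29 non-responder members. Clec4b1, a C-type lectin, differed least, with 36.7 CPM in responder members and 30.0 CPM in Cxcl9-zero cells, a log2 ratio of 0.29 whose interval, -0.00 to 0.58, reached 0, and with 5 counts in non-responder members. After thinning to 5000 UMIs, Slamf8 was detected in 61.5% of responder members and 38.8% of Cxcl9-zero cells, and in 44.8% of non-responder members and 13.6% of Cxcl9-zero cells, and in none of the 9 responder and 31 non-responder T cell barcodes deep enough. At 1 count Cd300e was too low in the 29 non-responder members to say whether it marks them, and these cells are described here by the rule and not by the marker list.

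The comparison of Cxcl9-high with Cxcl9-zero macrophages asks which RNAs accompany Cxcl9 in a macrophage. Since Cxcl9 chose the cells and all genes were read in the same cells, the values are a description with no test. A gene counted as measured with 50 or more counts in the 2 groups of a library. In the responder library 40 of 7980 measured genes (0.501%) were over 2-fold higher in Cxcl9-high cells and 49 (0.614%) over 2-fold lower. In the non-responder library, where the members' sum holds 368855 UMIs and 1 count is worth 2.71 CPM, 359 of 8299 (4.33%) were over 2-fold higher and 745 (8.98%) lower. The interval of the ratio included 0 for 226 of these 359 and 643 of these 745, and for none of the responder genes past 2-fold. Over 2-fold in both libraries, 6 of 7756 genes were higher (0.0774%) and 17 were lower (0.219%). The 6 were Cxcl9 itself, Serpina3g, Dnase1l3, Slamf8, Upp1 and Tc2n, and 8 of the 17 lower genes had 3 counts or fewer in non-responder members. The median over all measured genes was -0.02 on the log2 scale in the responder library and -0.04 in the non-responder one.

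Serpina3g and Dnase1l3 ranked highest with Cxcl9. Serpina3g (chr12:104236245-104241939, GRCm38), an intracellular serine protease inhibitor, was at 329 CPM in responder members and 78.8 CPM in Cxcl9-zero cells (log2 ratio 2.06, 95% interval 1.91 to 2.21), and at 371 CPM in non-responder members and 6.70 CPM in Cxcl9-zero cells (5.79, 5.39 to 6.20). Serpina3g was detected in 76.2% of the responder members and 41.4% of the non-responder members, against 27.7% and 4.23% of Cxcl9-zero cells. One non-responder cell held 55 of the 137 counts, and without it the ratio there was 5.26. Serpina3g lies in a cluster of near-identical copies whose reads the counting may have split, and T cells carry it too, detected after thinning in 9 of 9 responder T cell barcodes and in 61.3% of the 31 non-responder ones. Dnase1l3 (chr14:7964533-7994573), a secreted nuclease that degrades DNA of dying cells, was at 79.9 CPM in responder members and 19.9 CPM in Cxcl9-zero cells (2.01, 1.71 to 2.31), and at 89.5 CPM in non-responder members and 1.71 CPM in Cxcl9-zero cells (5.71, 4.88 to 6.55), with 16 of the 33 non-responder counts in 1 cell and a ratio of 5.03 without it. The summed level of both genes was alike in the members of the 2 libraries, which rested in part on these single non-responder cells. Fewer non-responder members carried Serpina3g: the median member had 0 Serpina3g UMIs there and 2 in the responder library.

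Gbp2 (chr3:142620602-142638008), a GTPase that attacks the vacuoles of intracellular microbes, was also at like levels in the members of both libraries, with a median of 6 UMIs per cell in each. Gbp2 was at 707 CPM in responder members and 359 CPM in Cxcl9-zero cells (0.98, 0.90 to 1.06), and at 743 CPM in non-responder members and 63.4 CPM in Cxcl9-zero cells (3.55, 3.35 to 3.75). Irg1, which makes itaconate, was at 111 CPM in responder members and 56.4 CPM in Cxcl9-zero cells, and at 103 CPM in non-responder members and 33.0 CPM in Cxcl9-zero cells, but 22 of the 38 non-responder counts came from 1 cell and without it the interval of the ratio (0.51, -0.31 to 1.23) reached 0. Cxcl10 was at 422 CPM in responder members and 246 CPM in Cxcl9-zero cells (0.78, 0.69 to 0.88). In the non-responder library Cxcl10 was at 466 CPM in members and 130 CPM in Cxcl9-zero cells, yet 1 cell held 140 of the 172 counts, and without that cell the log2 ratio was -0.42. The Cxcl10 difference thus stands on the responder library alone.

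Another group of genes was higher in members of both libraries at lower levels in the non-responder one. Fcgr4, an activating receptor for IgG, was at 1462 CPM in responder members and 1007 CPM in Cxcl9-zero cells (0.54, 0.49 to 0.58), and at 558 CPM in non-responder members and 243 CPM in Cxcl9-zero cells (1.20, 0.99 to 1.41). AW112010, an interferon-induced transcript, was at 5059 CPM in responder members and 3692 CPM in Cxcl9-zero cells, and at 2931 CPM in non-responder members and 1073 CPM in Cxcl9-zero cells. Fam26f, a channel-like membrane protein, was at 189 CPM in responder members and 114 CPM in Cxcl9-zero cells, and at 73.2 CPM in non-responder members and 13.5 CPM in Cxcl9-zero cells. For these genes the non-responder members stood below the Cxcl9-zero cells of the responder library. The rest of the 20 ranked highest were Anpep, Tlr12, Tc2n, Sectm1a, Gbp4, Klrk1, Fgl2, Tmem173, Tgm2, Klrb1b and Naaa, with log2 ratios of 0.54 (Fgl2) to 1.20 (Tc2n) in the responder and 0.75 (Tgm2) to 2.80 (Tc2n) in the non-responder library. Tc2n was seen in 10.3% of non-responder members, where 29 of its 44 counts came from 1 cell, without which the log2 ratio was 1.41. Sectm1a had 8 counts in non-responder members, 5 of them in 1 cell. Without the highest cell the interval of its log2 ratio there (1.11, -1.22 to 2.74) included 0.

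**Figure D2:**
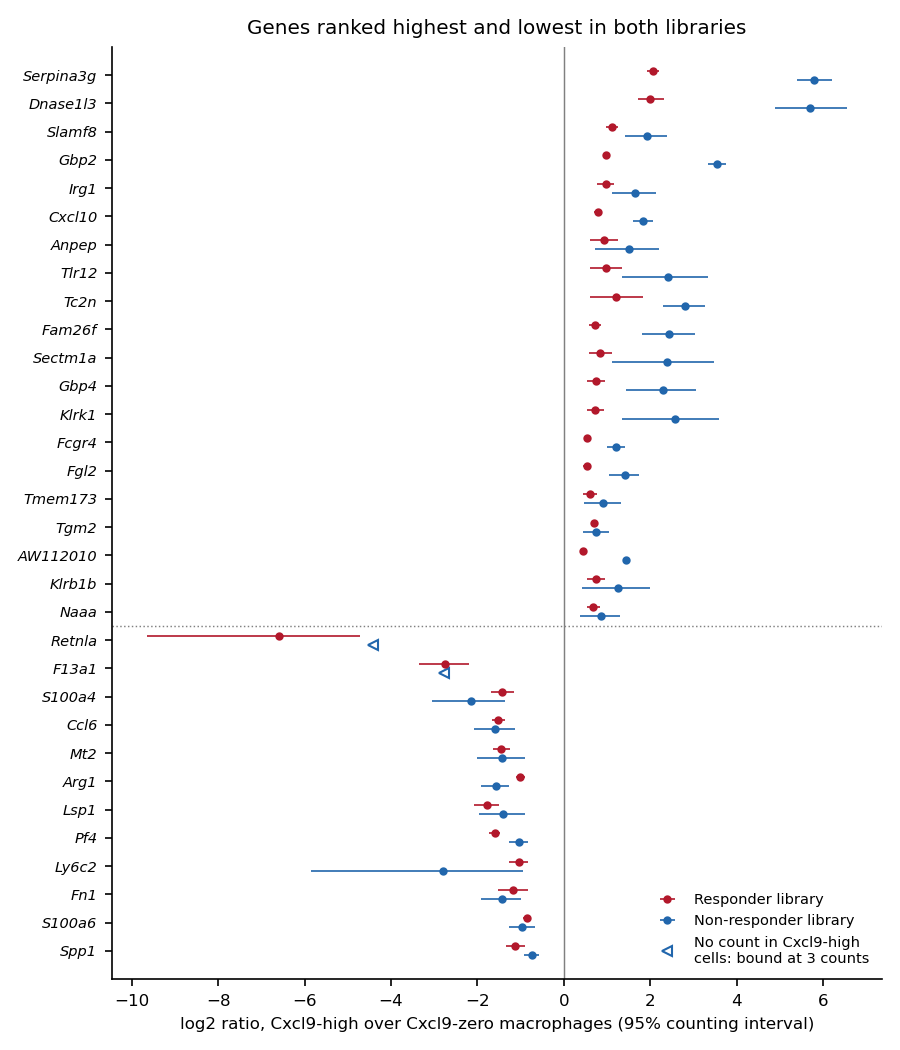
Log2 ratio of Cxcl9-high over Cxcl9-zero macrophages (horizontal axis) with 95% counting intervals for the 20 genes ranked highest (top) and the 12 ranked lowest (bottom) in both libraries; red is the responder and blue the non-responder library, and open triangles are upper bounds for genes with no count in non-responder members. The ratios of Serpina3g (2.06 and 5.79) and Dnase1l3 (2.01 and 5.71) stand farthest to the right.

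The genes ranked lowest included products of alternatively activated macrophages and of monocytes. Retnla, a secreted product of interleukin-4-activated macrophages, had 2 counts in responder members (0.324 CPM), against 31.3 CPM in Cxcl9-zero cells, and no count in non-responder members, against 173 CPM in Cxcl9-zero cells, at least 21.3-fold lower if 3 counts are taken as the floor. Retnla was detected in 1.06% of the responder Cxcl9-zero cells and 3.06% of the non-responder ones, so few cells carry the difference. One cell held 134 of the 179 counts in responder Cxcl9-zero cells and 1 held 1768 of the 2222 in non-responder ones. Without the cell with the most counts in each group, the log2 ratio was -5.60 in the responder library. It was -2.08 in the non-responder library, again at the floor of 3 counts. F13a1, a coagulation factor of monocytes, was at 5.02 CPM in responder members and 33.9 CPM in Cxcl9-zero cells, and at 0 in non-responder members and 55.3 CPM in Cxcl9-zero cells, at least 6.80-fold lower at that floor. Arg1, which consumes arginine, was at 212 CPM in responder members and 426 CPM in Cxcl9-zero cells (-1.004, -1.10 to -0.91), and at 225 CPM in non-responder members and 671 CPM in Cxcl9-zero cells (-1.58, -1.91 to -1.27). The chemokine Ccl6 was at 92.1 CPM in responder members and 263 CPM in Cxcl9-zero cells, and at 108 CPM in non-responder members and 325 CPM in Cxcl9-zero cells. Pf4, also a chemokine, was at 109 CPM in responder members and 333 CPM in Cxcl9-zero cells, and at 485 CPM in non-responder members and 999 CPM in Cxcl9-zero cells. The others were S100a4, S100a6, Mt2, Lsp1, Ly6c2, Fn1 and Spp1, with log2 ratios of -0.85 (S100a6) to -1.78 (Lsp1) in the responder and -0.74 (Spp1) to -2.80 (Ly6c2) in the non-responder library. Ly6c2 had 2 counts in non-responder members.

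Levels were then followed over classes of cells with more and more Cxcl9. In responder cells with 0, 1 to 2, 3 to 9, 10 to 19 and 20 or more Cxcl9 UMIs, Serpina3g was at 78.8, 117, 184, 262 and 434 CPM, and in non-responder cells at 6.70, 24.5, 53.6, 351 and 405 CPM. Gbp2 was at 359, 432, 521, 636 and 819 CPM in the responder classes and at 63.4, 183, 350, 598 and 984 CPM in the non-responder classes. Each class stood above the one before it for both genes in both libraries. Arg1 ran the other way in the non-responder library, at 671, 559, 359, 243 and 195 CPM, and in the responder library at 426, 316, 220, 225 and 193 CPM. Ccl8, a chemokine of monocyte-attracting type, took no such course, with 292, 203, 216, 322 and 804 CPM in the responder classes. Median depth was higher along the classes as well, in the responder library at 8781 UMIs with no Cxcl9 UMI and 11813 with 20 or more, and its part was not tested.

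**Figure D3:**
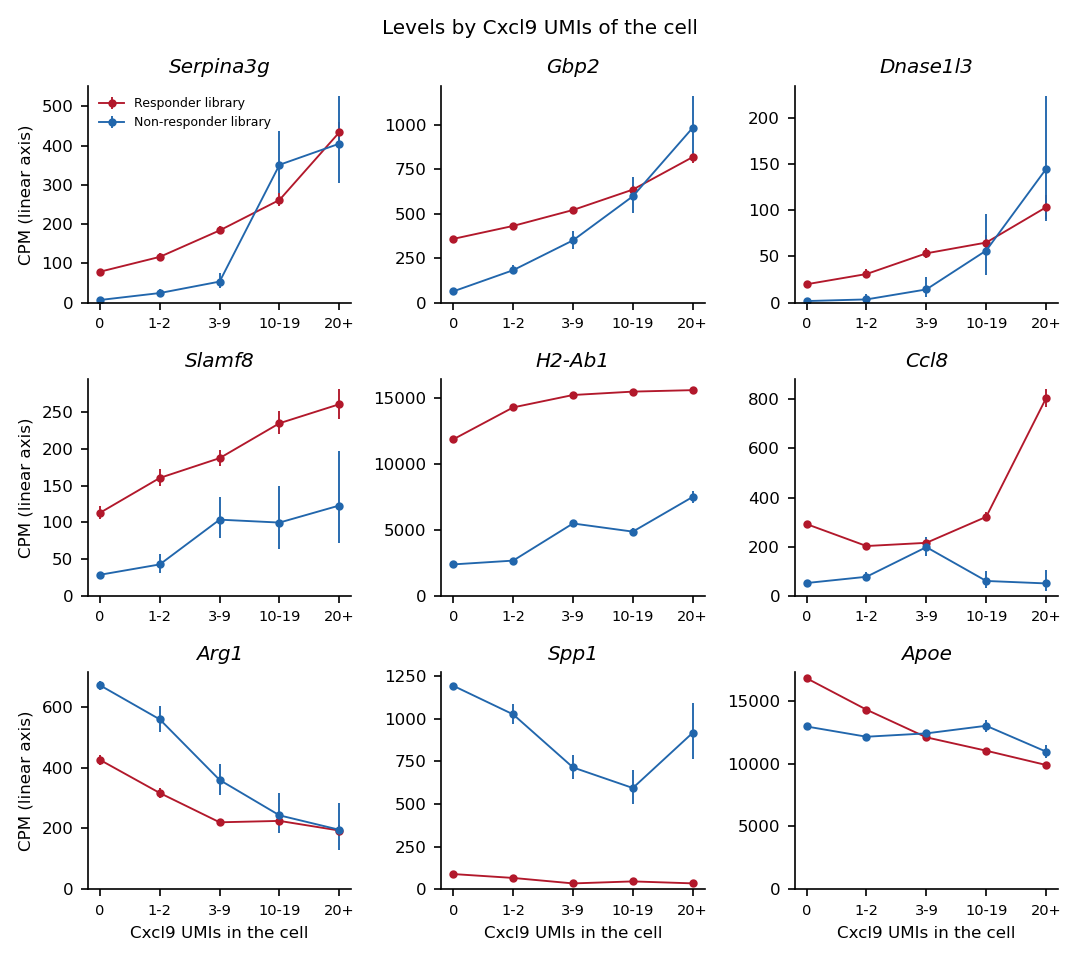
Level in CPM (vertical axes, linear, from 0) by Cxcl9 UMIs of the cell (horizontal axes) for 9 genes in the responder (red) and non-responder (blue) libraries; points are summed counts of all cells in the class and whiskers exact 95% Poisson intervals. Serpina3g and Gbp2 stand higher and Arg1 lower at 20 or more Cxcl9 UMIs than at 0 in both libraries, whereas Ccl8 reaches 804 CPM only in the last responder class.

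Grouped by function, the genes that interferon-gamma induces were higher with Cxcl9 in both libraries, read against 23.4% of all 7756 genes measured in both that were higher in both and 30.2% that were lower in both. These 2 shares include weak genes with no count in non-responder members, whose sign comes from the 3 counts set for a sum of 0. All 6 guanylate-binding proteins measured in both libraries were higher in both, with medians of 0.45 in the responder library and 1.46 in the non-responder one. All 5 immunity-related GTPases were too, with medians of 0.27 and 0.99; among them, Igtp was at 167 CPM in responder members and 139 CPM in Cxcl9-zero cells, and at 94.9 CPM in non-responder members and 38.9 CPM in Cxcl9-zero cells. Of 15 other interferon-gamma induced genes 11 were higher in both, 3 of them over 2-fold, with medians of 0.48 and 0.94; Ifitm3 (-0.01 and -0.07) was one that was not. The genes of these lists were chosen with earlier results of these libraries known.

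Antigen presentation by MHC class II, which displays peptides to CD4+ T cells, was higher with Cxcl9 in both libraries for 8 of 11 genes, with medians of 0.29 and 1.06. H2-Ab1, its beta chain, was at 15529 CPM in responder members and 11869 CPM in Cxcl9-zero cells, and at 5856 CPM in non-responder members and 2386 CPM in Cxcl9-zero cells. The invariant chain Cd74 was at 36816 CPM in responder members and 30156 CPM in Cxcl9-zero cells, and at 15610 CPM in non-responder members and 7503 CPM in Cxcl9-zero cells. Ciita, the switch factor of the class, was at 28.2 CPM in responder members and 20.1 CPM in Cxcl9-zero cells, with 5 counts in non-responder members. MHC class I presentation differed less, with medians of 0.11 and 0.39; the immunoproteasome activator gene Psme2 was at 877 CPM in responder members and 642 CPM in Cxcl9-zero cells, and at 648 CPM in non-responder members and 440 CPM in Cxcl9-zero cells. The interferon-gamma receptor chain Ifngr1 was at 137 CPM in responder members and 195 CPM in Cxcl9-zero cells, and at 206 CPM in non-responder members and 199 CPM in Cxcl9-zero cells.

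Type I interferon genes other than the 6 of the gate did not share one direction. Of 25 measured, 6 were higher and 4 lower in both libraries, with medians of -0.15 in the responder library and 0.38 in the non-responder one. Isg15, a ubiquitin-like modifier, was at 500 CPM in responder members and 505 CPM in Cxcl9-zero cells, and at 366 CPM in non-responder members and 271 CPM in Cxcl9-zero cells. The gate had removed the cells with the most of the 6 type I interferon genes from both groups.

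Alternative activation, lipid handling, matrix and glycolysis lists lay on the lower side. Of 10 alternative activation genes 8 were lower in both libraries and 2, Arg1 and Retnla, over 2-fold lower in both (medians -0.83 and -0.36). Trem2, a lipid receptor, was at 405 CPM in responder members and 641 CPM in Cxcl9-zero cells, and at 629 CPM in non-responder members and 926 CPM in Cxcl9-zero cells. Of 16 lipid and lysosome genes 11 were lower in both (-0.47 and -0.18); Apoe, a lipid carrier, was at 10594 CPM in responder members and 16817 CPM in Cxcl9-zero cells, but at 12254 CPM in non-responder members and 12969 CPM in Cxcl9-zero cells. Of 18 hypoxia and glycolysis genes 13 were lower in both (-0.31 and -0.13), and of 9 matrix genes 6 were (-0.60 and -0.36). Fn1, fibronectin, was at 16.7 CPM in responder members and 37.5 CPM in Cxcl9-zero cells, and at 114 CPM in non-responder members and 307 CPM in Cxcl9-zero cells. The medians were -0.13 and -0.14 for resident-type macrophage genes and 0.04 and -0.21 for chemokines other than the CXCR3 ligands.

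**Figure D4:**
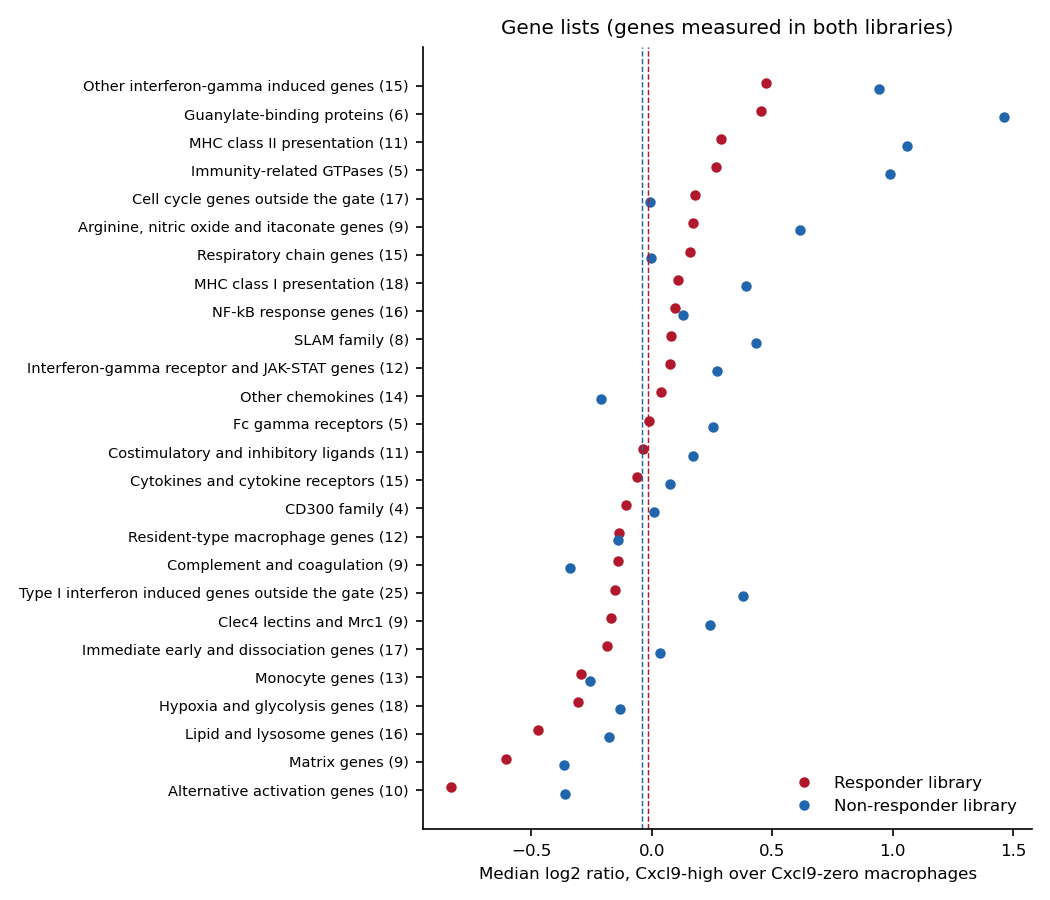
Median log2 ratio of Cxcl9-high over Cxcl9-zero macrophages (horizontal axis) of each gene list, with the number of genes measured in both libraries after its name; red is the responder and blue the non-responder library, and dashed lines mark the medians of all measured genes. Guanylate-binding proteins (0.45 and 1.46) lie on the right and alternative activation genes (-0.83 and -0.36) on the left.

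Responder and non-responder members, both chosen by the same Cxcl9 limit, were also set against each other. Of 6456 genes measured in the 2 sums together, 546 (8.46%) were over 2-fold higher in responder members and 274 (4.24%) over 2-fold lower. The counts depended on the count minimum: at 200 or more counts 125 were higher and 45 lower of 2978 genes. At 1 or more counts 749 were higher and 4647 lower of 12899, but there a sum of 0 stands at 3 counts. A gene with few responder counts and none in non-responder members is then called lower in responder members. Cd2, with 6 counts in responder and 0 in non-responder members, had a log2 ratio of -3.07 in this way. The 4647 is therefore not read as genes lower in responder members. In Cxcl9-zero cells the counts were 271 (3.02%) and 341 (3.8%) of 8964. Among the 6452 genes measured in both comparisons, 95 were over 2-fold higher in the responder library in both, 17.5% of the 544 in members and 43.2% of the 220 in Cxcl9-zero cells. For the over 2-fold lower genes the shared 48 were 17.5% of 274 and 53.9% of 89. The 43.2% and 53.9% are read against the 8.46% and 4.24% of all measured genes in members. The 2 values of 17.5% are read against 220 and 89 of 6452 genes in Cxcl9-zero cells. The non-responder members are 29 cells with 368855 UMIs, so counting error can carry genes past 2-fold. The number of the 546 and 274 genes whose intervals include equal levels is not given here. Whether the differences are particular to members was not tested.

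The gene ranked highest in responder members was Ifitm1, a membrane protein that restricts virus entry, at 559 CPM, against 24.4 CPM in non-responder members (log2 ratio 4.52). For Ifitm1 the responder Cxcl9-zero cells, at 450 CPM, and the non-responder ones, at 50.5 CPM, differed in the same direction. Ccl8 was at 510 CPM in responder and 56.9 CPM in non-responder members, against 292 and 52.3 CPM in Cxcl9-zero cells. Ccl8 UMIs per cell had a median of 0 and a highest value of 242 in a responder member. Ly6a, a surface protein that interferons induce, was at 3034 CPM in responder and 946 CPM in non-responder members, against 2534 and 493 CPM in Cxcl9-zero cells. Il1b, an inflammatory cytokine, was at 468 CPM in responder and 138 CPM in non-responder members, against 567 and 242 CPM in Cxcl9-zero cells. The others ranked highest were Cd300e, Gpr18, Plac8, Gpr171, Gbp2b and H2-Ab1; Gpr18 had no count in non-responder members and 43.2 CPM in responder members.

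Spp1, or osteopontin, led the genes that were lower in responder members, at 40.6 CPM against 716 CPM in non-responder members, and at 88.4 and 1195 CPM in Cxcl9-zero cells. Fcrls, an Fc receptor-like gene, was at 60.04 CPM in responder and 588 CPM in non-responder members, against 142 and 838 CPM in Cxcl9-zero cells. Fn1 was at 16.7 CPM in responder and 114 CPM in non-responder members. Gpr34, Tc2n, Egr1, Gpr183, Emp1, Clec4e and Ptgs1 completed the 10 lowest. For Spp1 and Fcrls the libraries differed more than Cxcl9-high and Cxcl9-zero cells did within either.

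**Figure D5:**
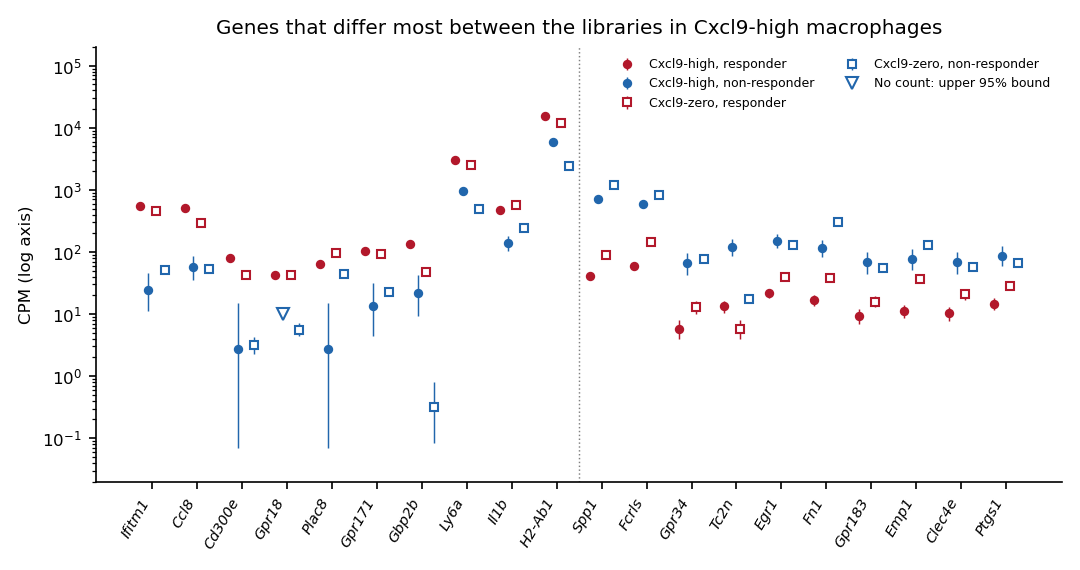
Level in CPM (vertical axis, logarithmic) of the 10 genes ranked highest (left) and the 10 ranked lowest (right) in responder over non-responder members; filled circles are Cxcl9-high and open squares Cxcl9-zero macrophages, red is the responder and blue the non-responder library, whiskers are exact 95% Poisson intervals, and a triangle is the upper bound where no count was found. Spp1 is at 40.6 CPM in responder and 716 CPM in non-responder members.

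Cells with Nos2 or with a strong type I interferon response were left out by the gate and can hold Cxcl9 as well. Of 256 responder macrophages with a Nos2 UMI 68 (26.6%) had 10 or more Cxcl9 UMIs, and of 51 non-responder ones 2 (3.92%). Of 120 responder macrophages with 20 or more UMIs of the 6 type I interferon genes 39 (32.5%) had them, and of 109 non-responder ones 4 (3.67%). The intervals of these responder shares were 21.3 to 32.4% and 24.2 to 41.7%, and that of the gated cells was 21.3 to 24.7%. The differences between the shares were not tested.

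Against the 68 Nos2-positive Cxcl9-high cells of the same library, responder members had a like Cxcl9 level, 1794 against 1696 CPM. Of 6620 genes 293 (4.43%) were over 2-fold higher in members and 105 (1.59%) lower. The 68 cells hold 765785 UMIs, against 6179252 in members, so counting error can carry genes past 2-fold. How many of the 293 and 105 have intervals that include equal levels is not given here. Pdcd1lg2, the PD-1 ligand PD-L2, was at 6.96 CPM in members and 36.6 CPM in Nos2-positive cells, and Cd274, the ligand PD-L1, at 54.2 and 111 CPM. Ifitm1 was at 559 CPM in members and 1598 CPM in Nos2-positive cells, Arg1 at 212 and 436 CPM, and Cxcl10 at 422 and 763 CPM. Ccl8, at 510 CPM in members and 235 CPM in Nos2-positive cells, and Clec4b1, at 36.7 and 9.14 CPM, were among the higher ones. Slamf8 (245 and 272 CPM) and Gbp2b (136 and 129 CPM) did not separate the cells beyond their counting intervals.

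Against the 39 Cxcl9-high cells with a strong type I interferon response, members again had a like Cxcl9 level, 1794 against 1895 CPM. Of 6490 genes 432 (6.66%) were over 2-fold higher in members and 155 (2.39%) lower. The 39 cells hold 470745 UMIs, so counting error can carry genes past 2-fold here too, and the number with intervals that include equal levels is not given. Cxcl10 was at 422 CPM in members and 1574 CPM in those cells, Isg15 at 500 and 2175 CPM, and Cxcl13, a chemokine of B cells, at 5.02 and 132 CPM. Ifitm1 was at 559 CPM in members and 93.5 CPM there. Slamf8 was at 245 and 246 CPM. Against the cells of the gate with 1 to 9 Cxcl9 UMIs, 13 of 8677 genes (0.15%) were over 2-fold higher in responder members and 16 (0.184%) lower, with Ccl8 (510 against 210 CPM) and Serpina3g (329 against 155 CPM) ranked highest.

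Ccl5, a T cell-attracting chemokine, had the highest variance over mean among responder members, and Ccl8 and Apoe were also near the top. After thinning to 5000 UMIs, the variance over the mean of the UMIs per cell was 49.2 for Ccl5 in 545 responder members and 59.4 in 565 Cxcl9-zero cells, and 38.9 for Apoe in members and 44.5 in Cxcl9-zero cells. For Ccl8 it was 26.4 in members and 68.3 in Cxcl9-zero cells. Every responder member had an H2-Ab1 UMI, with a lowest value of 13, a median of 172.5 and a highest of 503 UMIs, whereas the 29 non-responder members had a lowest value of 2, a median of 40 and a highest of 414 UMIs.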

How the data were processed

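The deposited files hold raw UMI counts for 27998 genes in 4425 responder and 2580 non-responder barcodes, made with the 10x 3′ v3 kit per the labels and with Cell Ranger 1.1.0 on mm10 (GRCm38) per the submitters' processing notes; other settings are not given in the sources used here. Library totals were 45866561 and 32032569 UMIs. Counts were summed per library and group and divided by the group's total (CPM). Intervals are exact and 95%: Poisson for a sum, conditional binomial for a ratio, Clopper-Pearson for a share. With 1 library a group there was no test. Genes were measured at 50 or more counts in the 2 sums compared. The genes named were the 20 highest and 12 lowest by the interval bound nearest to 0 in the weaker library, the 10 highest and 10 lowest between libraries, the label's 5 markers, up to 6 of the most abundant members of each list, and the 5 highest and 5 lowest by the difference of the ratios. Genes named for the neighbouring cells were chosen after their values were seen. Members and lists were chosen with earlier results of these data known. A ratio against no count used 3 counts. Of the gene IDs, 27645 matched GENCODE M21, which gave the coordinates of genes; promoters are RefSeq's. Doublets were not removed. Alternatives changed the depth, the gate, the Cxcl9 limit, the count minimum, the scaling (edgeR 4.0.16 TMM, R 4.3.3) and the weight of cells. Python 3.11.15, numpy 2.4.6, scipy 1.17.1, pandas 2.3.3 and matplotlib 3.10.9 were used, and the scripts were tested on simulated data.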

Additional observations from a re-analysis of the deposited data

Results flagged for a closer look

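The Cxcl9-high over Cxcl9-zero ratio had opposite signs in the libraries for 3603 of 7756 genes measured in both (46.5%), and counting intervals that exclude 0 on opposite sides for 73 (0.941%). Weak genes with no count in non-responder members can have a plus sign there, since a sum of 0 stands at 3 counts. The number of such genes among the 3603 is not given. Among the 57 genes named by rank or as markers of the label, some of which were named for their difference between the libraries, 5 had such intervals. The difference was not tested. The log2 ratio of Ifitm1 was 0.31 in the responder library and -1.05 in the non-responder one. That of Gdf3, a growth factor of the TGF-beta family, was 0.27 in the responder library and -1.64 in the non-responder one, where the members had 12 counts. Lig1, a DNA ligase, had 0.81 and -1.13, with 7 non-responder counts. Rrm1, a subunit of ribonucleotide reductase, had 0.65 and -2.98, with 1 non-responder count. Ddit4, a stress-induced inhibitor of mTOR, had -0.64 and 1.48, and without the non-responder cell with the most counts the second value was 0.69.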

How the results depend on the processing

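No paired analysis was possible because each group has 1 library. Of 1556 values of named genes under the alternatives, 1380 moved by less than their counting interval, and 7 had the other sign. Mmp12 was at 0.06 in the responder library with C1q at 2% or more of UMIs. Cd300e was at 1.54 in the non-responder library without its highest cell, and Rrm1 at 0.18 there after thinning. Neither gene had a count left in members in that setting, so these values are those of 3 counts and show no higher level. In the non-responder library Ly6c2 was at 0.40 with Cxcl9-high set at 0.1% of UMIs and Tc2n at -0.69 with under 5 type I interferon UMIs. Cxcl10 was at -0.42 there without its highest cell, an alternative chosen after seeing the data. Tc2n in responder over non-responder members was at 0.73 with under 5 type I interferon UMIs. The cause of the changes in the other genes was not tested. The Cxcl9-high share was 25.2% in the responder library after thinning, 38.5% in the responder library and 3.83% in the non-responder one at 5 or more UMIs, and 8.25% and 0.859% at 20 or more. Genes over 2-fold higher in Cxcl9-high cells of both libraries numbered 18 at 20 or more UMIs, 11 at 0.1% of UMIs and 10 with the mean over cells. They numbered 3 at 200 or more counts and 659 at 1 or more. The 659 include genes with no count in members of either library, such as Col1a1, because a sum of 0 stands at 3 counts. They are not read as genes higher with Cxcl9. Genes over 2-fold lower in both libraries numbered 31 at 20 or more UMIs, 27 at 0.1% of UMIs and 10 at 200 or more counts. Against Cxcl9-zero cells matched on UMIs they numbered 4 of 1728 measured genes, where fewer genes could be measured than the 7756 otherwise. In responder over non-responder members, 125 were over 2-fold higher at 200 or more counts. Over 2-fold lower were 179 at 20 or more UMIs, 45 at 200 or more counts and 4647 at 1 or more. The 4647 include genes with counts in responder members alone, again through the 3 counts set for a sum of 0. Of 810 list medians 43 moved. TMM scaling shifted the median of all genes by at most 0.09. The 29 non-responder members, with 368855 UMIs, limit every value of that library.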

Other observations

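Further gene groups, again as a description without a test, differed less between Cxcl9-high and Cxcl9-zero macrophages. Their counts are read against 23.4% of all 7756 genes that were higher in both libraries and 30.2% that were lower in both. No count here is taken as a result about its group. Of 16 NF-kB response genes 8 were higher and 2 lower in both libraries, with median log2 ratios of 0.09 in the responder library and 0.13 in the non-responder one. Sod2, the mitochondrial superoxide dismutase, was at 177 CPM in responder members and 115 CPM in Cxcl9-zero cells, and at 171 CPM in non-responder members and 125 CPM in Cxcl9-zero cells. Of 15 respiratory chain genes 6 were higher and 1 lower in both. Among 11 costimulatory and inhibitory ligands 4 were higher and 5 lower in both. Cd40, which T cells engage through its ligand, was at 87.9 CPM in responder members and 56.9 CPM in Cxcl9-zero cells, and at 75.9 CPM in non-responder members and 38.3 CPM in Cxcl9-zero cells. Of 17 immediate early genes, which tissue dissociation can raise, 1 was higher and 6 lower in both.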
